A study of Drosophila melanogaster with 55 samples.

Results

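ZAM and Tirant are endogenous retroviruses of the Drosophila genome, and their RNA was counted in single embryos under 4 repeat names: ZAM_I-int and TIRANT_I-int for the internal parts, and ZAM_LTR and TIRANT_LTR for the long terminal repeats (LTRs). These 4 names were taken by exact match from the 9263 repeat names of the deposited RNA count tables, of which 208 were transposable elements. All 4 had counts in each of the 12 RNA libraries.

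Both elements belong to the Gypsy group of LTR retrotransposons and carry an env gene beside gag and pol, as retroviruses do. The internal part encodes these proteins, and the LTRs hold the promoter and the end of the transcript. In the ovary, elements of this kind are known from the somatic follicle cells around the germline, where the flamenco piRNA locus silences ZAM. SetDB1, called Eggless in flies, methylates lysine 9 of histone H3, the mark of silent chromatin, and Gcn5 is a histone acetyltransferase.

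RNA was measured in total RNA of stage 5 embryos, 1 embryo per library and 3 libraries per group, out of 55 samples in the series. Embryos of the Gcn5 knockdown (Gcn5 KD) carried Gcn5 RNAi with GFP-SetDB1 and nos-Gal4, and those of the control knockdown (w KD) carried w RNAi, against the eye colour gene white, with the same GFP-SetDB1 and nos-Gal4. The nos-Gal4 driver uses the nanos promoter, which is active in the germline. Embryos of the mutant (F578A) were labelled SetDB1 F578A/CyO, and those of its control (WT) SetDB1 WT. CyO is a balancer chromosome that the WT label does not name, so mutation and balancer cannot be told apart, and neither can differences between stocks in the number of ZAM or Tirant insertions, which was not measured. Both knockdown groups share GFP-SetDB1 and nos-Gal4, which the labels of the F578A and WT RNA samples do not name. Titles of ChIP samples of F578A and WT do name GFP-SetDB1, so the RNA labels do not show that these groups lack it.

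Repeat counts per library were between 1.92 and 3.21 M, of which transposable elements took 2.60% to 5.93% and ribosomal RNA 0.814% to 9.17%. The share of transposable elements by library was 2.67%, 2.60% and 2.75% in Gcn5 KD, 2.61%, 3.01% and 3.17% in w KD, 5.93%, 5.00% and 3.97% in F578A, and 4.67%, 3.32% and 4.01% in WT. No gene was counted, so Gcn5, w, SetDB1 and markers of follicle cells or germ cells could not be checked in any library. The p-values measure the spread between single embryos. A lower value can come from fewer cells of a type or from less RNA per cell, and these cannot be told apart in whole embryos.

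The highest ZAM values were those of F578A, for the internal part and the LTR alike. Levels are given as scaled counts (CPM, counts of a name relative to the library size after TMM scaling of all 12 libraries), in the order of the replicate numbers. ZAM_I-int stood at 12.3, 12.5 and 16.6 CPM in Gcn5 KD, at 10.1, 22.7 and 17.9 CPM in w KD, 133, 85.3 and 71.7 CPM in F578A, and 31.1, 19.0 and 22.4 CPM in WT. Each F578A library was above each of the other 9. The group means were 13.8 ± 2.42 CPM in Gcn5 KD, 16.9 ± 6.33 CPM in w KD, 96.7 ± 32.3 CPM in F578A and 24.1 ± 6.24 CPM in WT (SD, n = 3 each). By the mean the order was F578A, WT, w KD and Gcn5 KD, and the ranges of WT and w KD, and of w KD and Gcn5 KD, overlapped.

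ZAM_LTR, which holds the ZAM promoter, had the same order of group means. It stood at 1.70, 3.66 and 6.85 CPM in Gcn5 KD, at 1.32, 6.04 and 5.97 CPM in w KD, 32.0, 38.1 and 32.8 CPM in F578A, and 11.9, 3.60 and 11.6 CPM in WT. Again the 3 F578A libraries were above all others, and the other 3 groups overlapped from neighbour to neighbour. The F578A libraries were close to each other, with an SD of 9.70% of the mean, about the 9.67% that counting error alone gives. For ZAM_I-int in F578A the SD was 33.4% of the mean, where counting error gives 5.76%.

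TIRANT_I-int, the internal part of Tirant, was spread less between the groups. It stood at 35.8, 30.3 and 43.1 CPM in Gcn5 KD, at 21.1, 27.2 and 19.5 CPM in w KD, 76.8, 72.1 and 50.6 CPM in F578A, and 50.7, 26.8 and 49.9 CPM in WT. The means were 36.4 ± 6.40 CPM in Gcn5 KD, 22.6 ± 4.04 CPM in w KD, 66.5 ± 13.96 CPM in F578A and 42.5 ± 13.6 CPM in WT (SD, n = 3 each). The order was F578A, WT, Gcn5 KD and w KD. The lowest F578A library and the highest WT library were level, the ranges of WT and Gcn5 KD overlapped, and those of Gcn5 KD and w KD did not.

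TIRANT_LTR, the terminal repeat of Tirant, was the least counted of the 4 names. It stood at 2.55, 4.18 and 3.43 CPM in Gcn5 KD, at 0.881, 2.01 and 2.79 CPM in w KD, 9.93, 10.0 and 4.78 CPM in F578A, and 6.54, 1.96 and 5.19 CPM in WT. The ranges of neighbouring groups in the order F578A, WT, Gcn5 KD and w KD all overlapped. The raw counts were 6, 8 and 7 in Gcn5 KD and 2, 4 and 7 in w KD, so that counting error alone gave an SD of 37.8% and 48.0% of these means.

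**Figure D1:**
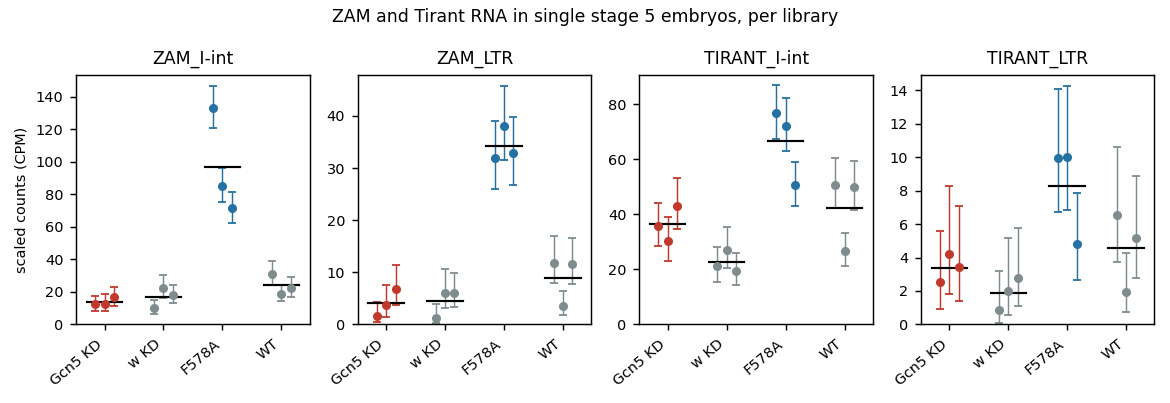
Scaled counts (CPM, vertical axes from 0, a scale of its own for each name) of the 4 ZAM and Tirant names in the 12 libraries, with groups on the horizontal axis. Points are libraries in the order of the replicate numbers, bars are 95% Clopper-Pearson intervals for counting error, and black lines are group means: the F578A libraries stand above all others for ZAM_I-int and ZAM_LTR and touch the WT libraries for both Tirant names.

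Some libraries were low for several names at once. WT replicate 2 was the lowest of its group for all 4 names and had the lowest share of transposable elements in its group, 3.32%. F578A replicate 3 was the lowest of its group for ZAM_I-int, TIRANT_I-int and TIRANT_LTR, with 3.97% of counts on transposable elements. Over the 12 libraries the pairs of names had Pearson correlations of log2 CPM from 0.80 (ZAM_I-int and TIRANT_LTR) to 0.94 (ZAM_I-int and ZAM_LTR). Within groups, as deviations from the group means, the correlations were between 0.59 and 0.77. All names in a library share its depth and its scaling, so these values are descriptions.

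Per kilobase of annotated sequence the order of the names was different. ZAM_LTR was annotated over 11.858 kb, ZAM_I-int over 123.773 kb, TIRANT_LTR over 27.029 kb and TIRANT_I-int over 216.094 kb, summed over all copies. On the scale of CPM per kilobase, ZAM_LTR averaged 0.343 in Gcn5 KD, 0.375 in w KD, 2.89 in F578A and 0.760 in WT. ZAM_I-int averaged 0.112 in Gcn5 KD, 0.137 in w KD, 0.781 in F578A and 0.195 in WT. TIRANT_I-int averaged 0.168 in Gcn5 KD, 0.105 in w KD, 0.308 in F578A and 0.197 in WT, and TIRANT_LTR 0.125 in Gcn5 KD, 0.0701 in w KD, 0.305 in F578A and 0.169 in WT. ZAM_LTR thus had the highest density of the 4 names in each group.

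Among the 208 transposable-element names, by mean CPM over the 12 libraries, TIRANT_I-int ranked 98, ZAM_I-int 101, ZAM_LTR 138 and TIRANT_LTR 170. By mean CPM per kilobase ZAM_LTR ranked 62, ZAM_I-int 138, TIRANT_I-int 167 and TIRANT_LTR 177. The median transposable-element name had 34.8 CPM and 0.532 CPM per kilobase. In density ZAM_LTR was above that median, and the other 3 names were below it. These means over all libraries include the high ZAM values of F578A. ZAM_LTR averaged 2.89 CPM per kilobase in F578A, and 0.343 in Gcn5 KD, 0.375 in w KD and 0.760 in WT. ZAM_I-int averaged 96.7 CPM in F578A, and 13.8 CPM in Gcn5 KD, 16.9 CPM in w KD and 24.1 CPM in WT.

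The comparison of F578A with WT asks what a single-residue change in SetDB1 does to repeat RNA in the embryo. ZAM_I-int was 4.01-fold higher in F578A than in WT by value (95% interval 2.37 to 6.81), and ZAM_LTR 3.83-fold higher (1.82 to 8.06), while TIRANT_I-int and TIRANT_LTR were 1.57-fold (0.937 to 2.63) and 1.82-fold (0.741 to 4.47) higher by value. None of the 4 passed edgeR's quasi-likelihood test after Benjamini-Hochberg adjustment over all 2395 names tested, where 1 name passed (0.0418%). At an unadjusted p under 0.05 both ZAM names passed and neither Tirant name did, against 5.39% of all names. The groups did not overlap for both ZAM names and overlapped for both Tirant names, against 12.4% of all names tested without overlap.

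ZAM_I-int had a log2 fold change of 2.01 (SE 0.328, 95% interval 1.24 to 2.77, edgeR adjusted p = 0.136). It had the sixth smallest p of the 2395 names and ranked 5 of 177 transposable-element names by fold change. ZAM_LTR had a log2 fold change of 1.94 (SE 0.461, 0.87 to 3.01, edgeR adjusted p = 0.360) and ranked 6 of 177. The internal part and the LTR of ZAM, counted apart, thus had nearly the same fold change. TIRANT_I-int had 0.65 (SE 0.320, -0.09 to 1.40, edgeR adjusted p = 0.897) and TIRANT_LTR 0.86 (SE 0.558, -0.43 to 2.16, edgeR adjusted p = 0.930). Their ranks by fold change were 37 and 15 of 177. Both Tirant intervals include 0 and also a doubling.

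The ZAM values depended on the test for their call and not for their direction. With DESeq2 the adjusted p was 3.7e-06 for ZAM_I-int and 0.0042 for ZAM_LTR, in a fit where 1.21% of all names passed. Without a filter on low counts the adjusted p by edgeR was 1.5e-05 and 0.0072, where 0.552% of all names passed. Fitted among transposable elements alone, the log2 fold changes were 1.71 for ZAM_I-int (edgeR adjusted p = 0.00074) and 1.74 for ZAM_LTR (edgeR adjusted p = 0.0093), where 5.62% of the names passed. Over 14 alternatives the log2 fold change of ZAM_I-int lay between 1.71 and 2.23, with adjusted p from 3.7e-06 to 0.990 by edgeR or DESeq2. That of ZAM_LTR lay between 1.56 and 2.20, with adjusted p from 0.0042 to 0.999 by edgeR or DESeq2. The Tirant names did not pass in any of the 14, where TIRANT_I-int had log2 fold changes of 0.38 to 0.80 and TIRANT_LTR of 0.49 to 1.22. Without WT replicate 2, whose values were the lowest of its group, the log2 fold changes were 1.86 for ZAM_I-int, 1.56 for ZAM_LTR, 0.41 for TIRANT_I-int and 0.49 for TIRANT_LTR.

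**Figure D2:**
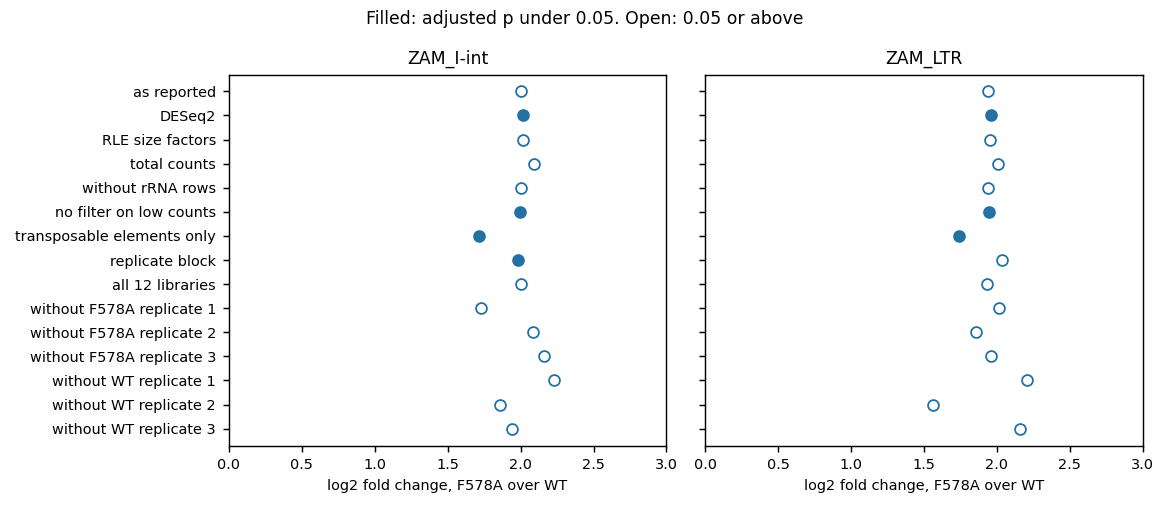
Log2 fold change of ZAM_I-int (left) and ZAM_LTR (right) in F578A over WT under the reported fit and 14 alternatives, 1 line each. Filled points have an adjusted p under 0.05 and open points one of 0.05 or above: all 30 points lie above 1.5, and 7 of them are filled, none in a fit that leaves out a library.

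Transposable elements as a whole had higher values in F578A, by less than the ZAM names. Positive log2 fold changes were found for 140 of 177 transposable-element names (median 0.28), against a median of 0.02 over all 2395 names. In the fit of transposable elements alone 91 of 178 were positive, with a median of 0.00. As a share of the counts on transposable elements, both ZAM names together made up 0.274% ± 0.0270 in F578A and 0.0803% ± 0.0143 in WT (SD, n = 3 each), a ratio of 3.41. For both Tirant names together the shares were 0.156% ± 0.0146 in F578A and 0.114% ± 0.0276 in WT, a ratio of 1.37. The 2-sided exact permutation test gave p = 0.1 for each, the smallest value that 3 libraries against 3 allow. The share of transposable elements itself overlapped between F578A and WT, at means of 4.97% and 4.00% (exact permutation p = 0.3).

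The comparison of Gcn5 KD with w KD asks the same of the acetyltransferase. The ZAM_I-int and ZAM_LTR values of both knockdowns lay in the same range, and TIRANT_I-int was 1.59-fold higher in Gcn5 KD by value (95% interval 0.808 to 3.13). Of the 3 names that passed the filter on low counts, none passed edgeR's test over 2142 names, of which 2 passed (0.0934%), or 73 with the replicate numbers as pairs. None had an unadjusted p under 0.05, where 5.56% of all names did, and none passed with DESeq2, where 0.654% did. The groups did not overlap for TIRANT_I-int alone, against 9.52% of all names tested without overlap.

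ZAM_I-int had a log2 fold change of -0.32 in Gcn5 KD over w KD (SE 0.564, 95% interval -1.53 to 0.90, edgeR adjusted p = 0.993). ZAM_LTR had -0.15 (SE 0.826, -1.94 to 1.63, edgeR adjusted p = 0.993). TIRANT_I-int had 0.67 (SE 0.452, -0.31 to 1.65, edgeR adjusted p = 0.993), with each of the 3 Gcn5 KD libraries above each w KD library. In 14 alternatives its log2 fold change stayed between 0.49 and 0.86, and the lowest adjusted p by edgeR or DESeq2 was 0.199. The intervals of both ZAM names include a halving, which is therefore not excluded. TIRANT_LTR did not pass the filter on low counts. Without the filter its log2 fold change was 0.80 (edgeR adjusted p = 0.831), and in a fit of all 12 libraries 0.81 (edgeR adjusted p = 0.905). Its mean was 3.39 ± 0.814 CPM in Gcn5 KD and 1.89 ± 0.959 CPM in w KD (SD, n = 3 each), with overlapping groups (unpaired exact permutation p = 0.2). Between libraries of the same number it was higher in Gcn5 KD in 3 of 3 pairs, by CPM. The libraries of replicate 3 had equal raw counts, 7 in Gcn5 KD and 7 in w KD, and differed in CPM by their scaling alone.

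As a share of the counts on transposable elements, both Tirant names together took 0.142% ± 0.0187 in Gcn5 KD and 0.0860% ± 0.0129 in w KD (SD, n = 3 each), a ratio of 1.65. The unpaired exact permutation p was 0.1, the smallest possible when the replicate numbers are not used as pairs. Both ZAM names together took 0.0636% ± 0.0153 in Gcn5 KD and 0.0740% ± 0.0284 in w KD (SD, n = 3 each; exact permutation p = 0.8). The direction of ZAM_LTR was not stable: without Gcn5 KD replicate 1 its log2 fold change was 0.26, and without w KD replicate 2 or 3 it was 0.14 and 0.13.

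Whether the effects of Gcn5 KD and F578A differed was tested with an interaction term over all 12 libraries. For ZAM_I-int the effect of Gcn5 KD minus that of F578A was -2.29 on the log2 scale (SE 0.572, 95% interval -3.50 to -1.08), the lowest value of 181 transposable-element names and the eighth smallest p of 2458. For ZAM_LTR the difference was -2.07 (SE 0.905, -3.98 to -0.15), and 2 of the 181 names were lower. Without 1 library it lay between -2.70 (without Gcn5 KD replicate 3) and -1.68 (without Gcn5 KD replicate 1). For TIRANT_I-int it was 0.04 (SE 0.503, -1.03 to 1.10) and for TIRANT_LTR -0.05 (SE 1.16, -2.50 to 2.40). These intervals do not show that Tirant behaved alike in both experiments, since they include changes beyond a doubling in either direction.

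None of the 4 differences passed edgeR's test after adjustment, where 1 of 2458 names did (0.0407%). The adjusted p by edgeR was 0.309 for ZAM_I-int, 0.837 for ZAM_LTR and 1.00 for both Tirant names. Both ZAM names had an unadjusted p under 0.05, as did 5.45% of all names. The difference of ZAM_I-int passed with DESeq2 (-2.31, adjusted p = 0.030), as did 0.244% of all names, and in the fit of transposable elements alone (-1.90, edgeR adjusted p = 0.0058), as did 1.09% of those names. Over 19 alternatives it lay between -2.55 and -1.90, with adjusted p from 0.0058 to 1.00 by edgeR or DESeq2.

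The control groups w KD and WT differ in genotype, and whether they were collected together is not given in the sources used here. All tested ZAM and Tirant names had lower values in w KD than in WT. TIRANT_I-int had a log2 fold change of -0.91 in w KD over WT (SE 0.385, 95% interval -1.76 to -0.05, edgeR adjusted p = 0.113). ZAM_LTR had -1.002 (SE 0.700, -2.55 to 0.55, edgeR adjusted p = 0.331) and ZAM_I-int -0.51 (SE 0.447, -1.50 to 0.48, edgeR adjusted p = 0.444). TIRANT_LTR, at a mean of 1.89 CPM in w KD and 4.56 CPM in WT, did not pass the filter on low counts. Without the filter its log2 fold change was -1.17 (edgeR adjusted p = 0.497), and in a fit of all 12 libraries -1.23 (edgeR adjusted p = 0.230).

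None of the 3 passed with edgeR or DESeq2, in a comparison where 530 of 2257 names passed with edgeR (23.5%) and 29.6% with DESeq2. TIRANT_I-int alone had an unadjusted p under 0.05, against 37.6% of all names. The groups overlapped for all 3, against 43.0% of all names tested without overlap. Transposable elements had lower values in w KD as a whole, with 134 of 169 names negative (median -0.48). Fitted among transposable elements alone, the log2 fold changes were -0.06 for ZAM_I-int, -0.50 for ZAM_LTR and -0.40 for TIRANT_I-int, and none of these 3 passed with edgeR, where 6.94% of the names did. Ribosomal RNA took 5.78% ± 3.53 of the counts in w KD and 1.98% ± 0.866 in WT (SD, n = 3 each). With library sizes taken without ribosomal RNA the log2 fold changes were -0.45 for ZAM_I-int, -0.93 for ZAM_LTR and -0.86 for TIRANT_I-int.

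**Figure D3:**
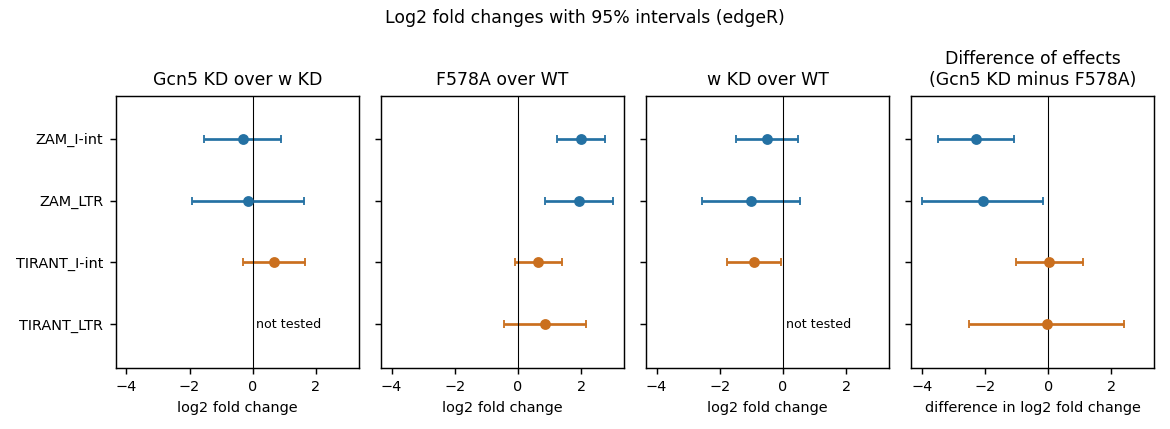
Log2 fold changes of the 4 names with 95% intervals (horizontal axes), for Gcn5 KD over w KD, F578A over WT, w KD over WT, and the effect of Gcn5 KD minus that of F578A. The ZAM intervals (blue) exclude 0 in F578A over WT and in the difference of effects, and of the Tirant intervals (orange) only that of TIRANT_I-int in w KD over WT does so; TIRANT_LTR did not pass the filter on low counts in Gcn5 KD over w KD or in w KD over WT.

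ZAM counts stood higher against Tirant counts in F578A than in WT, and lower in Gcn5 KD than in w KD, with no overlap in either pair. Counts of ZAM_I-int per 100 counts of TIRANT_I-int do not depend on the scaling of a library, and this ratio was chosen after the values of the 4 names were seen. It was 34.5, 41.4 and 38.6 in Gcn5 KD, 47.9, 83.3 and 91.8 in w KD, 173, 118 and 142 in F578A, and 61.3, 70.7 and 44.8 in WT. In F578A alone ZAM_I-int counts outnumbered TIRANT_I-int counts, in 3 of 3 libraries. With LTR counts added, ZAM also stood above Tirant in w KD replicate 3 (0.0806% against 0.0752% of transposable-element counts). Per kilobase of annotated sequence ZAM_I-int was also the higher in w KD (means of 0.137 against 0.105 CPM). It was the lower in Gcn5 KD (0.112 against 0.168) and WT (0.195 against 0.197). The ratio of ZAM_I-int to TIRANT_I-int counts was 2.45-fold higher in F578A than in WT (log2 difference 1.29). In Gcn5 KD it was 0.535 times that of w KD (log2 difference -0.90).

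For both differences the unpaired 2-sided exact permutation p was 0.1, which with 3 libraries against 3 is the lowest possible. Between w KD and WT the log2 difference was 0.31 and the groups overlapped (exact permutation p = 0.4). With other pseudocounts, with LTR counts added, or without any 1 library, the log2 difference lay between 1.11 and 1.44 for F578A and between -1.19 and -0.72 for Gcn5 KD. These alternatives too were chosen after the values were seen. How many ratios of other names had groups without overlap was not computed. Of single names 12.4% had none in F578A over WT and 9.52% in Gcn5 KD over w KD.

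The LTR and the internal part of an element are counted apart, and their ratio within a library was compared between groups with a pseudocount of 0.5. For ZAM the LTR had 13.8, 29.2 and 41.2 counts per 100 internal counts in Gcn5 KD, 13.0, 26.7 and 33.3 in w KD, 24.0, 44.7 and 45.8 in F578A, and 38.2, 19.0 and 51.8 in WT. For Tirant it had 7.14, 13.8 and 7.95 in Gcn5 KD, 4.17, 7.41 and 14.3 in w KD, 12.9, 13.9 and 9.43 in F578A, and 12.9, 7.32 and 10.4 in WT. All groups overlapped. The log2 differences for ZAM were 0.16 in Gcn5 KD over w KD and 0.11 in F578A over WT (exact permutation p = 0.7 each), and for Tirant 0.18 (exact permutation p = 0.9) and 0.23 (exact permutation p = 0.6).

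Between w KD and WT the log2 difference of this ratio was -0.50 for ZAM (exact permutation p = 0.4) and -0.27 for Tirant (exact permutation p = 0.7). The annotated length of ZAM_LTR was 9.58 kb per 100 kb of ZAM_I-int, and the count ratio was above that in 12 of 12 libraries, by a median of 3.26 times (1.36 to 5.41). For Tirant the annotated length was 12.5 kb per 100 kb, and the count ratio was above it in 5 of 12 libraries, with a median of 0.793 times (0.333 to 1.14). How reads shared by LTR copies were counted is not given in the sources used here.

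**Figure D4:**
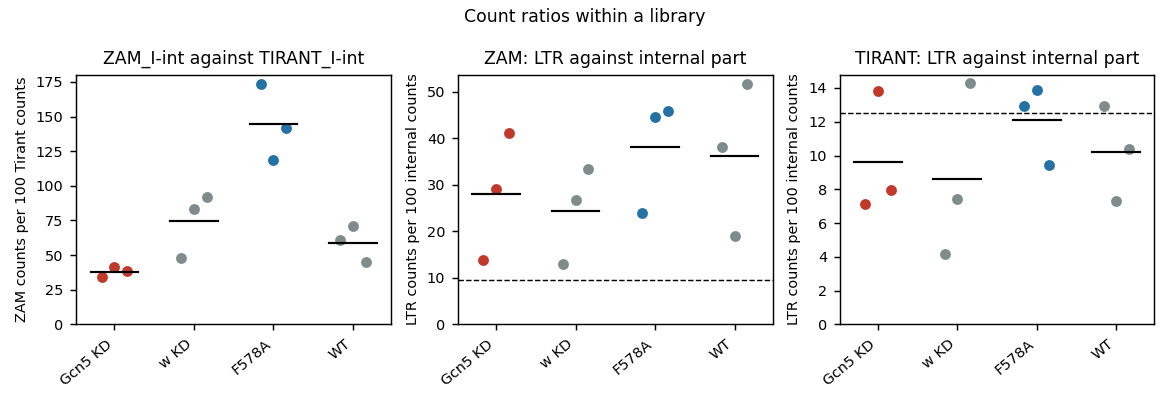
Ratios of counts within each library, by group: ZAM_I-int per 100 TIRANT_I-int (left), and LTR per 100 internal counts for ZAM (middle) and Tirant (right). Points are libraries in the order of the replicate numbers, black lines are means and dashed lines are the ratio of annotated lengths; F578A is above 100 ZAM per 100 Tirant in 3 of 3 libraries, and ZAM is above the dashed line in all 12.

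Other Gypsy-group elements that carry env (the gypsy, Idefix, 17.6, 297, gtwin, rover, quasimodo, Gypsy5 and nomad names) were read beside ZAM and Tirant as a list of 20 names, of which 19 were tested. In F578A over WT 14 of the 19 were positive, with a median log2 fold change of 0.45, against 0.28 over all transposable elements. Scaled by total counts 16 of 19 were positive, and among transposable elements alone 11 of 19 (median 0.18). ROVER-I_DM, the internal part of rover, was the 1 name of the list that rose with edgeR, by 3.05 on the log2 scale (SE 0.138, edgeR adjusted p = 7.8e-05). It was also the 1 call among all names (0.0418%), and with DESeq2 2 names of the list rose, where 1.21% of all names passed. Its F578A libraries had 1119, 1328 and 1397 CPM, against 150, 146 and 168 CPM for the WT libraries. ROVER-LTR_DM had 1.79 (edgeR adjusted p = 0.463), QUASIMODO_LTR 0.97 and QUASIMODO_I-int 0.77 (edgeR adjusted p = 0.897 each). ZAM_I-int and ZAM_LTR were above all 19 but ROVER-I_DM, and TIRANT_I-int lay nearer to the median of the list.

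In Gcn5 KD over w KD 11 of the 19 were positive, with a median log2 fold change of 0.11, against 0.05 over all transposable elements, and 0 passed with edgeR or DESeq2. At an unadjusted p under 0.05 there were 2, ROVER-I_DM at 1.50 (edgeR adjusted p = 0.484) and GTWIN_LTR at -1.36 (edgeR adjusted p = 0.754). That is 10.5% of the 19 tested, against 5.56% of all names and 15.6% of transposable elements. TIRANT_I-int, at 0.67, was above the median of the list, and both ZAM names were below it.

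In w KD over WT 18 of the 19 were negative, with a median log2 fold change of -0.67, against -0.48 over all transposable elements. Among transposable elements alone 12 of 19 were negative (median -0.15). QUASIMODO2-LTR_DM rose by 3.40 (edgeR adjusted p = 0.00030), while ROVER-I_DM fell by 2.53 (edgeR adjusted p = 0.00042), NOMAD_I-int by 1.32 (edgeR adjusted p = 0.0085) and DM297_I-int by 1.26 (edgeR adjusted p = 0.039). These 4 names are 21.1% of the 19 tested, near the 23.5% of all names that passed and 27 of 169 transposable elements. In the fit of transposable elements alone 1 name of the list rose and 1 fell with edgeR, where 6.94% of the names passed. The difference of effects, Gcn5 KD minus F578A, was negative for 13 of the 19, with a median of -0.48 against -0.28 over all transposable elements, and by total counts for 17 of 19. None of the 19 passed there with edgeR or DESeq2, and 3 had an unadjusted p under 0.05 (15.8%), against 5.45% of all names and 20 of 181 transposable elements.

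Elements known from the female germline (burdock, the I element and the telomere retrotransposons HeT-A, TAHRE and TART) formed a second list of 7 names. In F578A over WT 5 of the 7 were positive (median log2 fold change 0.52), in Gcn5 KD over w KD 5 of 7 (median 0.46, and 4 of 7 by total counts or among transposable elements alone). None passed with edgeR in either comparison, and 2 names in F578A and 3 in Gcn5 KD had an unadjusted p under 0.05, against 5.39% and 5.56% of all names in these comparisons and 10.2% and 15.6% of transposable elements. With DESeq2 2 rose in F578A and 1 in Gcn5 KD, where 1.21% and 0.654% of all names passed. Among transposable elements alone 1 rose in each, where 5.62% of the names passed in F578A and 4.17% in Gcn5 KD. BURDOCK_LTR had the highest log2 fold change of the list in both, 2.17 in F578A over WT (edgeR adjusted p = 0.360) and 3.94 in Gcn5 KD over w KD (edgeR adjusted p = 0.111). In w KD over WT all 6 tested were negative (median -0.70), as were 134 of 169 transposable elements. TART fell by 0.71 (edgeR adjusted p = 0.015), the 1 call of the list with edgeR, and with DESeq2 3 of the 6 fell, where 23.5% and 29.6% of all names passed. Among transposable elements alone 6 of 7 were negative there and TART did not pass with edgeR.

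**Figure D5:**
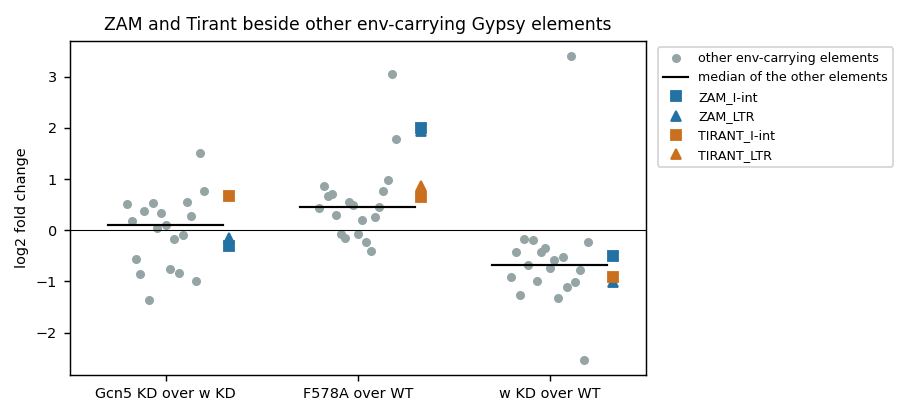
Log2 fold changes (vertical axis) of ZAM and Tirant beside the other env-carrying Gypsy elements (grey points, 19 tested names, black line at their median) in Gcn5 KD over w KD, F578A over WT and w KD over WT. In F578A over WT both ZAM names lie above all grey points but ROVER-I_DM at 3.05, and both Tirant names lie closer to the median of 0.45.

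The transposable-element names whose values ran most like those of ZAM_I-int and TIRANT_I-int were taken by the Pearson correlation of log2 CPM over the 12 libraries, among 179 names. For ZAM_I-int these were FROGGER_I-int (0.94), Copia_LTR (0.94) and BLOOD_LTR (0.89), which are LTR retrotransposons like ZAM. As deviations from the group means the correlations were 0.72, 0.96 and 0.77 in the same order. FROGGER_I-int averaged 4.85 CPM in Gcn5 KD, 7.89 CPM in w KD, 40.2 CPM in F578A and 15.8 CPM in WT. Copia_LTR averaged 7.45 CPM in Gcn5 KD, 7.84 CPM in w KD, 43.1 CPM in F578A and 21.6 CPM in WT. BLOOD_LTR averaged 15.5 CPM in Gcn5 KD, 8.37 CPM in w KD, 69.8 CPM in F578A and 19.998 CPM in WT.

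For TIRANT_I-int the closest were DM176_I-int, the internal part of the env-carrying element 17.6 (0.95), and the DNA transposons TC1-2_DM (0.91) and HOBO (0.89). Within groups the correlations were 0.86, 0.79 and 0.56. DM176_I-int averaged 34.9 CPM in Gcn5 KD, 24.2 CPM in w KD, 61.6 CPM in F578A and 45.6 CPM in WT, close to the group means of TIRANT_I-int. Depth and scaling are shared by all names of a library, and transposable elements differed together between libraries, so a high correlation is a description of these 12 libraries.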

How the data were processed

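RNA was counted per repeat name in 12 libraries. The values are raw counts as the authors deposited them, with featureCounts 1.6.5 per the submitters' processing notes and annotated lengths per the file headers; the builds dm6 and BDGP6 are named there without a role. The treatment of multi-mapping reads and of strand, and the repeat annotation, are not given in the sources used here. Reads may therefore have passed between related elements. The peak lists, 29 in number, were not used, since no annotation of ZAM or Tirant copies was at hand, and no sequences are shown for that reason.

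Counts were fitted over all repeat names with edgeR 4.0.16 in R 4.3.3: TMM scaling, filterByExpr, the quasi-likelihood test and Benjamini-Hochberg adjustment with a threshold of 0.05. Each comparison used its own 6 libraries, and the difference of effects all 12. DESeq2 1.42.0, other scalings, no filter, transposable elements alone, a replicate block and the omission of each library were tried as alternatives. The test procedure was tested on simulated data, in which names were drawn independently of each other. It recovered 14.6% of the simulated 2-fold changes in Gcn5 KD over w KD, 33.3% in F578A over WT and 30.9% in w KD over WT. Of the simulated 4-fold changes it recovered 76.3%, 85.7% and 88.9% in the same order. Unchanged names called were 3, 5 and 8. The changed names tested, 2-fold and 4-fold, were 96 and 97 in Gcn5 KD over w KD. In F578A over WT they were 96 and 98. In the data 2 and 1 names passed in these comparisons. The adjusted threshold is looser when more names change, so these shares do not give the power of the real fits there. Ratios and shares within a library were compared by 2-sided exact permutation tests, which did not use the replicate numbers as pairs. Intervals for single libraries are Clopper-Pearson at 95% and cover counting error only.

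Replicates were not duplicates: within groups they differed by a chi-square per degree of freedom of 10.0 to 99.1. Same-numbered libraries of Gcn5 KD and w KD deviated together (correlations 0.61, 0.26 and 0.46) and were treated as pairs in the block, a pairing inferred from the counts. In the F578A experiment (0.70, -0.11 and -0.04) and between w KD and WT (-0.52, -0.34 and -0.08) same numbers were not taken to mark pairs.

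The 4 names and the lists were chosen with earlier results of these data known. From each list at most 4 elements with the smallest p in a comparison are named, and the names most like ZAM_I-int and TIRANT_I-int are the 3 with the highest correlation.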

Additional observations from a re-analysis of the deposited data

Results flagged for a closer look

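The ratio of ZAM_I-int to TIRANT_I-int counts moved in opposite directions in the experiments: it was higher in each of the 3 F578A libraries than in any WT library, and lower in each of the 3 Gcn5 KD libraries than in any w KD library. The log2 difference was -0.90 in Gcn5 KD over w KD and 1.29 in F578A over WT, and the Gcn5 KD difference less the F578A difference was -2.20. This difference between the experiments was not tested, and the ratio was chosen after the values were seen. In F578A over WT ZAM_I-int (2.01) did not overlap and TIRANT_I-int (0.65) did. In Gcn5 KD over w KD TIRANT_I-int (0.67) did not overlap and ZAM_I-int (-0.32) did. Of all single names 12.4% and 9.52% did not overlap in these comparisons. The share among ratios of other names was not computed.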

How the results depend on the processing

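Fold changes of ZAM in F578A over WT, and the differences of effects for ZAM, kept their direction under all alternatives run; the share of annotated copies with a peak was not run, because no annotation of copies was at hand. The number of names that passed moved with the setting. For Gcn5 KD over w KD (2 calls) it was 14 with DESeq2, 15 without a filter, 7 among transposable elements alone, 73 with the replicate block, 8 with all 12 libraries and 1 to 13 without 1 library. For F578A over WT (1 call) it was 29, 30, 10, 7 and 3 in the same order of settings, and 1 to 3 without 1 library. For w KD over WT (530 calls) it was 12 among transposable elements alone, 311 with the replicate block and 271 to 514 without 1 library. For the difference of effects (1 call) it was 6 with DESeq2, 8 without a filter, 2 among transposable elements alone, 4 with the replicate block and 1 to 2 without 1 library. Among transposable elements alone fewer names are tested, and the scaling and spread are estimated from these names only. The cause of the moves was not tested for any setting.

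ZAM_I-int in F578A over WT passed with DESeq2 (2.02), without a filter (1.99) and among transposable elements alone (1.71). It also passed with the replicate block (1.99, edgeR adjusted p = 0.017), though same numbers were not taken to mark pairs in this experiment. ZAM_LTR passed with DESeq2 (1.96), without a filter (1.95) and among transposable elements alone (1.74). The difference of effects for ZAM_I-int passed with DESeq2 (-2.31) and among transposable elements alone (-1.90). The block changed no other call of the 4 names.

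Small values turned in sign. The difference of effects was -0.14 for TIRANT_I-int by total counts, a scaling that moved the median of all names from -0.01 to -0.19, and 0.27 for TIRANT_LTR among transposable elements alone. With a pseudocount of 5 the LTR-to-internal difference was -0.050 for ZAM in F578A, and for Tirant -0.15 in Gcn5 KD, -0.0035 in F578A and 0.22 in w KD over WT. Without 1 library, ZAM_LTR in Gcn5 KD ranged from -0.78 to 0.26, and the differences of effects from -0.16 to 0.28 for TIRANT_I-int and from -0.40 to 0.35 for TIRANT_LTR. The LTR-to-internal differences then ranged from -0.18 to 0.58 (ZAM in Gcn5 KD), -0.29 to 0.42 (ZAM in F578A), -0.19 to 0.59 (Tirant in Gcn5 KD) and -0.67 to 0.11 (Tirant in w KD over WT).

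Counts were lowest for TIRANT_LTR, with 2 to 8 per library in both knockdowns, below the filter on low counts; without the filter, and in all 12 libraries together, it did not pass.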
